A study of Homo sapiens with 6 samples.

Results

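The genes of the TRiC/CCT chaperonin, TCP1 (subunit alpha), CCT2 (beta), CCT3 (gamma), CCT4 (delta), CCT5 (epsilon), CCT6A (zeta), CCT7 (eta) and CCT8 (theta), were followed in OVCAR5 cells treated with SpiD7. They were chosen by symbol, 8 of the 29982 gene symbols in the expression table, and each symbol stood on 1 row. OVCAR5 cells are a long-established human cancer line, and SpiD7 is a spirocyclic dimer with cysteine-reactive groups that was studied as an activator of the unfolded protein response. RNA was sequenced from 6 libraries. The vehicle DMSO had 2 libraries, 10 μM SpiD7 for 2 h had 2, and the same dose for 6 h and for 12 h had 1 library per time. The labels give no duration for the vehicle and do not say whether replicates came from separate cultures, so the p-values below measure only the spread between these libraries. Values are FPKM, read fragments scaled to the length of the transcript and to the mapped reads of the library, which allows levels to be compared between genes.

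TRiC/CCT is the ATP-driven chaperonin of the eukaryotic cytosol. Its stacked rings are built from paralogous subunits, each present once per ring, and enclose a chamber in which actin, tubulin, WD40-repeat proteins and other newly made chains fold. Prefoldin hands unfolded actin and tubulin to the chamber, phosducin-like proteins adjust its cycle, and the tubulin cofactors take over folded tubulin to form the dimer.

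The replicate 2 columns in the table behaved as group means and were read as such, an inference from their values that no source states. The library behind each mean was recovered by subtracting the first one, every value called recovered rests on this reading, and the members of a group are called the first and the recovered library here. The depth of the libraries is unknown, since the table holds no counts. The epithelial keratins KRT8 (1459 to 2194 FPKM) and KRT18 (1242 to 1742 FPKM) and the adhesion molecule EPCAM (77.4 to 86.5 FPKM) were high in all 6 libraries, with KRT7 at 209 to 491, KRT19 at 138 to 239 and CDH1 at 10.4 to 19.3 FPKM. Of the leukocyte genes CD3E was listed at 0 in all 6 libraries and PTPRC was at most 0.0317 FPKM, while CD14 was at 3.10 to 9.36 FPKM and highest at 12 h. The fibroblast genes COL1A1 (0.596 to 2.18 FPKM), COL3A1 and DCN and the endothelial gene CDH5 were low. The ovarian markers were low: PAX8 was between 1.64 and 2.12 FPKM, and MUC16 and WT1 stayed under 1 FPKM. PECAM1, also endothelial, was at 10.7 and 7.74 FPKM in the recovered DMSO and recovered 2 h libraries and between 0.320 and 0.961 FPKM in the other libraries, so the recovered libraries stood apart from the first ones in genes other than the chaperonin's too. What part this has in the results below was not tested, and the 6 h and 12 h values of the subunits are also given against the first DMSO library alone.

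In the DMSO libraries the most abundant subunit mRNA was CCT7, at 552.6 and 370.3 FPKM in the first and the recovered library. CCT6A followed at 516.0 and 335.3 FPKM. CCT8 was the least abundant subunit mRNA, at 107.9 and 72.2 FPKM. CCT7 ranked 1st, CCT6A 2nd and CCT8 8th within every one of the 6 libraries. CCT8 did not reach the level of any other subunit: its highest value was 118 FPKM, at 6 h, and the lowest value of another subunit was 130 FPKM, for TCP1 in the recovered DMSO library. The ranges of CCT7 and CCT6A over the 6 libraries overlapped, although CCT7 was above CCT6A within each library. The most abundant subunit mRNA was between 4.44 and 5.13 times as high as the least abundant in a library, while the assembled ring holds each subunit once.

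In the middle of the order were CCT3 (336.5 and 220.3 FPKM in the first and the recovered DMSO library), CCT5 (296.4 and 171.4 FPKM), CCT4 (292.0 and 181.1 FPKM), TCP1 (247.4 and 129.6 FPKM) and CCT2 (199.0 and 141.0 FPKM). Their ranges overlapped, and their ranks changed between the DMSO libraries: CCT5 was 4th and CCT4 5th in the first, and the reverse held in the recovered one.

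**Figure D1:**
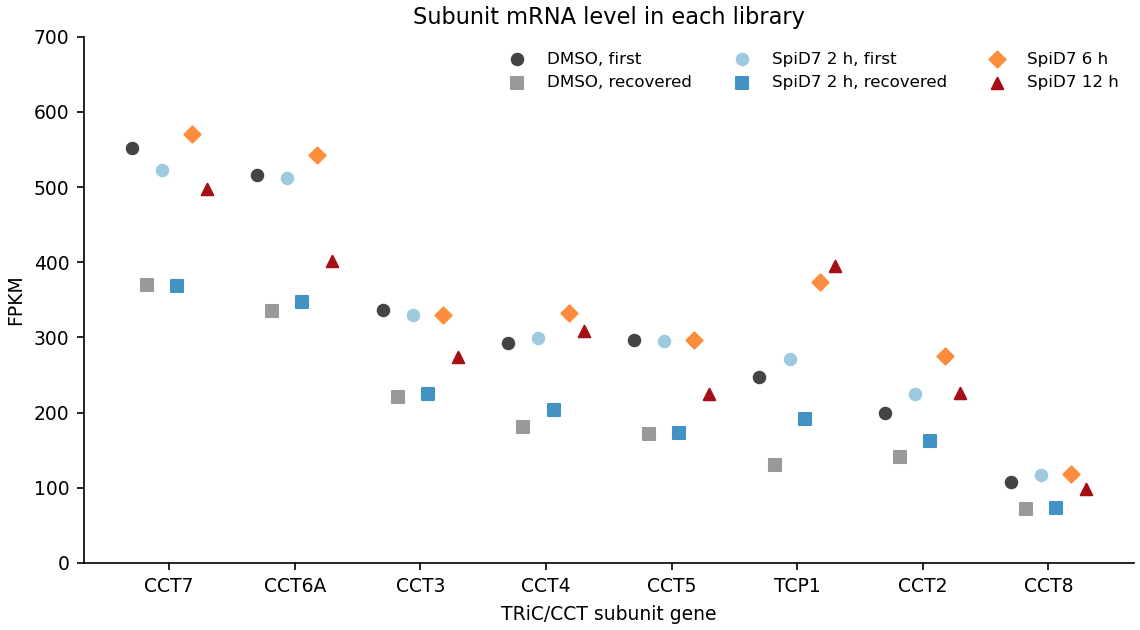
FPKM of the 8 subunit genes (horizontal axis, ordered by mean DMSO level) in each of the 6 libraries (points, vertical axis from 0). For every subunit the recovered DMSO and 2 h libraries (squares) lie below the first ones (circles), and only for TCP1 is the 12 h library the highest of the 6.

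The subunits moved together between libraries of the same treatment. In the recovered DMSO library all 8 were lower than in the first, by a median of -0.62 on the log2(FPKM + 0.1) scale, against a median of -0.056 over all 13287 genes with a mean of at least 1 FPKM. TCP1 differed most, at -0.93, and CCT2 least, at -0.50. In bulk RNA, fewer cells with an mRNA and less of it in each cell cannot be told apart. The same held at 2 h, where the recovered library was lower for all 8 subunits, by a median of -0.56. The summed FPKM of the 8 genes was 2548 and 1621 for DMSO and 2572 and 1742 for 2 h of SpiD7, so the recovered library held 63.6% and 67.8% of the sum in the first. Of all genes tested, 46.7% were lower in the recovered library of both groups. This spread, which the first and recovered library of each group showed in the same direction, sets the error of the limma comparisons below. The 6 h and 12 h differences are read against it too. These fits do not pair libraries by number, and 1 that does so for 2 h is given near the end.

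After 2 h of SpiD7 the groups overlapped for each of the 8 subunits. Limma with Benjamini-Hochberg adjustment over all 13287 genes called 0 of the 8 subunits at an adjusted p under 0.05, and 0.0226% of all genes (3 genes: MIR1260B, SNORA18 and SNORA32, named after their values were seen), while 378 genes had an unadjusted p under 0.05. With 2 libraries a group this test passed few genes whatever their size: the heat shock genes HSPA1B, HSPA1A and DNAJB1 differed by 3.85, 3.30 and 2.29 (log2) at 2 h and had adjusted p-values of 0.379, 0.539 and 0.639 in limma. The count of 0 subunits therefore does not show that they were unchanged. Both 2 h libraries were above both DMSO libraries for 0 of the 8 subunits and for 13.7% of all genes. The median difference over the subunits was 0.044 (log2), against -0.0082 over all genes.

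TCP1 had the largest difference at 2 h. It was at 271.0 and 191.2 FPKM in the 2 h libraries, each above the DMSO library of the same kind but with overlapping groups. The log2 difference was 0.35 (SE 0.43, 95% interval -0.92 to 1.61, n = 2 and 2, limma adjusted p = 1). CCT2 followed at 224.5 and 161.9 FPKM, with a difference of 0.19 (SE 0.30, limma adjusted p = 1). For the other 6 subunits the differences lay between -0.044 (CCT7) and 0.10 (CCT4), with standard errors of 0.33 to 0.44 and an adjusted p of 1 each in limma. The interval for CCT3, whose difference was closest to 0, ran from -1.03 to 1.03. In the fit that pairs libraries by number, intervals were narrower, at -0.24 to 0.23 for CCT3 and -0.22 to 0.91 for TCP1. That pairing rests on the replicate labels only.

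At 6 h the single library held more mRNA of each subunit than the mean of the DMSO libraries, with a median log2 difference of 0.41 against 0.033 over all genes. The comparison itself has no test, as 6 h and 12 h have 1 library each. A limma fit over all 6 libraries, added after the data were examined, in which the lone library is assumed to vary like DMSO and 2 h, called 0 subunits at 6 h and 0 at 12 h, against 0.294% and 0.339% of all genes (738 and 1221 genes had an unadjusted p under 0.05). All subunits but CCT3, that is 7 of 8, were above both DMSO libraries, against 31.6% of all genes. The subunits deviated together between the DMSO libraries, so these are not 7 separate observations. For CCT5 (0.0033) and CCT7 (0.045) the count rests on small gaps to the first DMSO library. Median-ratio scaling lowered the median difference at 6 h to 0.35, and the count was not repeated under it. Of the summed FPKM of all genes, the 8 subunits made up 0.290% at 6 h. This was less than 0.307% for the first DMSO library and more than 0.151% for the recovered one. TCP1 was the 1 subunit more than 2-fold above the DMSO mean, which held for 5.66% of all genes. The size depended on the DMSO library used: the median difference was 0.099 when the first DMSO library was the reference and 0.75 when the recovered one was.

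TCP1 reached 373.3 FPKM at 6 h, which was 1.06 (log2) above the DMSO mean, 0.59 above the first DMSO library and 1.53 above the recovered one. The fit over all 6 libraries gave an SE of 0.53 and an adjusted p of 0.977 in limma. CCT2, at 275.4 FPKM, was 0.72 above the DMSO mean and 0.47 above the first DMSO library. CCT4, at 332.8 FPKM, was 0.53 above the mean and 0.19 above the first library. The remaining subunits were near the first DMSO library: CCT8 (117.7 FPKM) differed from it by 0.12, CCT6A (543.0 FPKM) by 0.074, CCT7 (570.1 FPKM) by 0.045, CCT5 (297.1 FPKM) by 0.0033 and CCT3 (329.9 FPKM) by -0.029. Beyond TCP1, CCT2 and CCT4, the 6 h values thus lay close to the higher of the DMSO libraries.

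At 12 h TCP1 had the largest difference among the subunits. It was at 395.0 FPKM, 1.14 (log2) above the DMSO mean, 0.68 above the first DMSO library and 1.61 above the recovered one. The gap of 0.68 was smaller than the difference of -0.93 between the recovered and the first DMSO library, as was the gap of 0.59 at 6 h. In the fit over all 6 libraries the 12 h difference had an SE of 0.53, a 95% interval of -0.41 to 2.69 and a limma adjusted p of 0.629. More than 2-fold higher than the DMSO mean were 6.48% of all genes, and 1 of the 8 subunits, TCP1; more than 2-fold lower were 3.76% of all genes and 0 subunits. TCP1, CCT2 (226.6 FPKM) and CCT4 (308.0 FPKM) were above both DMSO libraries, as were 30.1% of all genes. Below both were 35.6% of all genes and 0 subunits. CCT2 was 0.19 and CCT4 0.077 above the first DMSO library, also less than their differences between the DMSO libraries (-0.50 and -0.69).

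The other 5 subunits lay between the DMSO libraries at 12 h. CCT7 was at 497.6, CCT6A at 402.3, CCT3 at 273.8, CCT5 at 224.2 and CCT8 at 98.3 FPKM. Against the first DMSO library their differences ran from -0.40 (CCT5) to -0.13 (CCT8), and against the recovered one from 0.26 (CCT6A) to 0.45 (CCT8), so the direction turned with the DMSO library used. The median over the 8 subunits was 0.15 against the DMSO mean, -0.14 against the first and 0.44 against the recovered library, beside -0.051, -0.065 and -0.0022 over all genes.

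**Figure D2:**
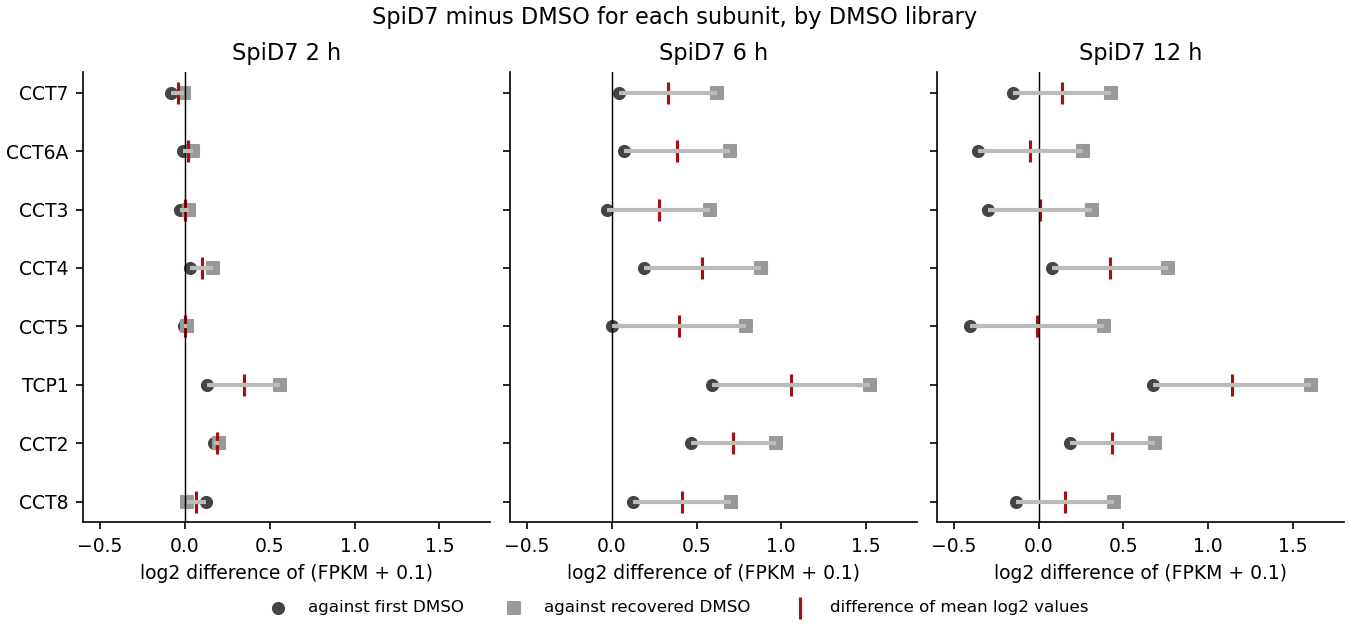
Log2 difference of FPKM + 0.1 (horizontal axis) of each subunit at 2 h, 6 h and 12 h from DMSO. Circles use the first DMSO library (with the first 2 h library), squares the recovered one (with the recovered 2 h library), and red bars the mean log2 values; TCP1 lies to the right of the other subunits at 6 h and 12 h against either DMSO library.

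Between 6 h and 12 h, a comparison that uses no recovered library, TCP1 and the other subunits differed in sign. The 12 h value was lower than the 6 h value for 7 subunits and for 56.7% of all genes, with a median of -0.26 over the 8 subunits and -0.058 over all genes. The difference was -0.43 for CCT6A, -0.41 for CCT5, -0.28 for CCT2, -0.27 for CCT3, -0.26 for CCT8, -0.20 for CCT7 and -0.11 for CCT4. TCP1 was 0.082 higher, a step smaller in size than its gaps between recovered and first libraries (-0.93 with DMSO and -0.50 at 2 h). With 1 library at each time these differences have no replicate check.

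The make-up of the subunit mRNA pool was also compared, since a difference common to the subunits cancels in their proportions. TCP1 gave 9.71% and 7.99% of the summed FPKM in the DMSO libraries, 10.5% and 11.0% in the 2 h libraries, 13.1% at 6 h and 16.3% at 12 h. Its share was higher in every SpiD7 library than in either DMSO library, and its rank among the 8 went from 6th and 7th with DMSO to 3rd at 6 h and 12 h. CCT6A, by contrast, gave 20.3% and 20.7% with DMSO, 19.9% in both 2 h libraries, 19.1% at 6 h and 16.6% at 12 h. CCT3 gave 13.2% and 13.6% with DMSO and 11.6% and 11.3% at 6 h and 12 h. The share of CCT8 stayed between 4.05% and 4.57%.

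**Figure D3:**
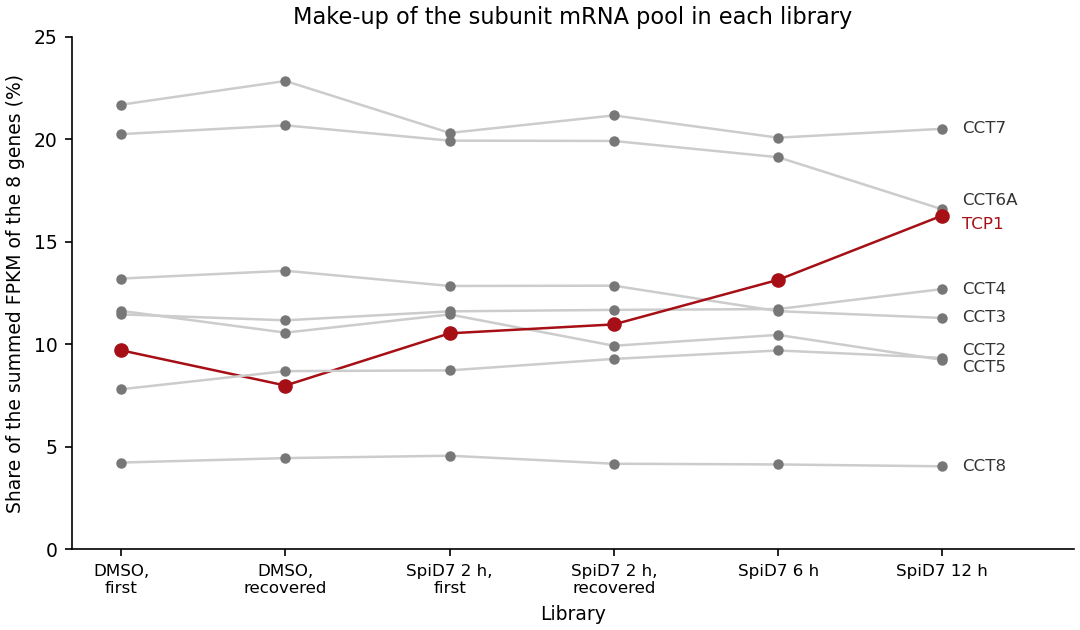
Share of the summed FPKM of the 8 subunit genes (vertical axis, %) in each library (horizontal axis), with lines only to guide the eye. TCP1, in red, goes from 9.71% and 7.99% with DMSO to 16.3% at 12 h, where it comes close to CCT6A at 16.6%.

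Set against the mean log2 level of the other 7 subunits in the same library, TCP1 was at -0.24 and -0.55 with DMSO, at -0.13 and -0.050 at 2 h, at 0.23 at 6 h and at 0.59 at 12 h. The 2 h and DMSO libraries did not overlap, with a difference of 0.30, and the exact two-sided permutation test gave p = 0.333, the smallest value that groups of 2 and 2 allow. At 12 h TCP1 was 0.98 (log2) higher against the others than with DMSO, which is 1.98-fold. CCT3, CCT6A and CCT7 were lower against the other subunits in both 2 h libraries than in both DMSO libraries, with differences of -0.098, -0.074 and -0.15 on the log2 scale, each again with an exact permutation p of 0.333. This measure contains TCP1 itself on the other side of each comparison, so the directions of the 8 subunits are not independent of each other. Groups of 2 and 2 often separate without any difference, as this p shows, and no share over all genes was taken for this measure.

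The genes around the subunits were read beside them. TCP1 lies at chr6:159778498-159789749 on the minus strand (GENCODE v29, GRCh38), and MRPL18, a mitochondrial ribosomal protein gene, starts 63 bases away on the opposite strand without overlapping it. MRPL18 was at 90.5 and 55.8 FPKM with DMSO, 128.8 and 118.2 FPKM at 2 h, 237.6 FPKM at 6 h and 294.7 FPKM at 12 h, so each SpiD7 library was above both DMSO libraries. Its log2 difference was 0.79 at 2 h (SE 0.31, n = 2 and 2, limma adjusted p = 1), 1.74 at 6 h and 2.05 at 12 h, and 1.70 at 12 h against the first DMSO library alone. Over all 6 libraries limma gave the 12 h difference an SE of 0.38 and an adjusted p of 0.446. TCP1 and MRPL18 thus had the same order of treatment times, with larger differences for MRPL18.

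At its other end TCP1 overlaps the last 558 bases of ACAT2, a gene of acetyl-CoA metabolism on the opposite strand, and the table put both genes, with the small nucleolar RNA genes SNORA20 and SNORA29, on 1 locus. The library kit does not mark strand, so reads in the overlap cannot be told apart. ACAT2 was low beside TCP1, between 20.7 and 29.4 FPKM in the 6 libraries, and its difference at 12 h was -0.19. SNORA20 was at 29.8 FPKM in the first 2 h library and 31.9 FPKM at 12 h and was listed at 0 in the other 4, and SNORA29 was at 16.9 FPKM at 6 h and listed at 0 in the other 5.

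Of the other subunits, CCT4, CCT5, CCT6A and CCT7 also start within 182 bases of a protein-coding gene on the opposite strand by GENCODE. None of these partners showed a difference like that of MRPL18. The RefSeq promoter windows of CCT5 and CCT7, searched below, begin at bases 10250287 and 73234058, so their RefSeq starts lie further inside these genes. CCT4 (chr2:61868089-61888804, minus strand) overlaps the start of COMMD1 by 81 bases, and COMMD1 was at 52.6 and 39.7 FPKM with DMSO and 49.9 FPKM at 12 h. CCT5 (chr5:10249921-10266412, plus strand) starts 24 bases from FAM173B, which was at 12.2 and 10.2 FPKM with DMSO and 11.8 FPKM at 12 h. CCT6A (chr7:56051630-56063989, plus strand) starts 26 bases from PSPH, a serine synthesis gene, at 29.3 and 22.3 FPKM with DMSO and 20.9 FPKM at 12 h. CCT7 (chr2:73233420-73253021, plus strand) starts 182 bases from PRADC1, at 21.2 and 18.2 FPKM with DMSO and 19.1 FPKM at 12 h. The 12 h differences of these partners from the DMSO mean ran from -0.29 (PSPH) to 0.13 (COMMD1), and from the first DMSO library from -0.49 (PSPH) to -0.047 (FAM173B). SNORA15, a small nucleolar RNA gene inside CCT6A, was listed at 0 in all 6 libraries.

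**Figure D4:**
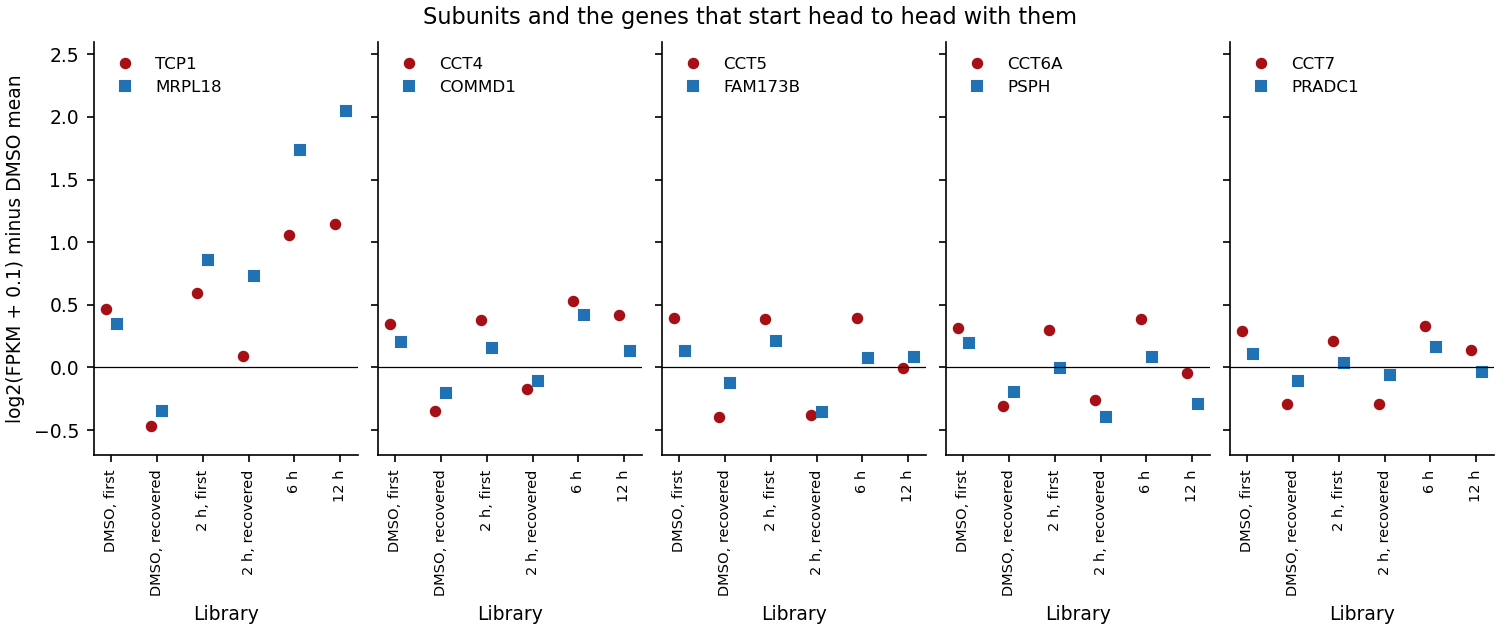
Log2(FPKM + 0.1) minus the DMSO mean (vertical axis) for 5 subunits (red circles) and the genes that start beside them on the opposite strand (blue squares) in the 6 libraries (horizontal axis). TCP1 and MRPL18 are both highest at 12 h, at 1.14 and 2.05, while the other partners stay within -0.29 to 0.13 there.

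The remaining subunits have no such partner with a level to compare. CCT2 lies at chr12:69585334-69601570 on the plus strand, and the microRNA genes MIR3913-1 and MIR3913-2 near its start were listed at 0. CCT3 (chr1:156308968-156367873, minus strand) contains TSACC, at 0.325 to 1.13 FPKM, and by its GENCODE start lies 1339 bases from RHBG, at 0.0727 to 0.263 FPKM. The RefSeq promoter window of CCT3, chr1:156338243-156338542, lies inside that span, nearer to the start of TSACC (base 156337314) than to that of RHBG. CCT8 lies at chr21:29055805-29073797 on the minus strand.

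The start regions of the subunits were searched for the inverted repeats that make up heat shock elements, since heat shock genes had larger differences at 12 h than the subunits. RefSeq promoter windows (GRCh38.p14, 250 bases before to 50 after each start) were found for 7 of the 8 subunits, and CCT6A was not among them. Starts are those of RefSeq, which for TCP1 is base 159789602 and differs from the GENCODE start. The RefSeq starts of the other subunits with a window differ from their GENCODE starts too. On both strands, which read the same for these palindromes, GAANNTTC was in 8.21% and TTCNNGAA in 9.46% of the 27305 genes with a window, and 16.2% held at least 1 of the forms. TCP1, CCT2 and CCT4 held 1, and CCT3, CCT5, CCT7 and CCT8 held none. TGATGNAA, the core of the element bound by ATF4 and its partners, was in the windows of 4.46% of genes and of 0 of the 7 subunits. The matches are shown as 30 bases or fewer of the strand of each gene, with the motif in capitals. TCP1, CCT2 and CCT4 were also above both DMSO libraries at 12 h, and a link between this and the matches was not tested.
TCP1, chr6:159789815-159789844, minus strand, 231 bases before the RefSeq start: tcgtttgaggcGAAGGTTCaacctcttccc
CCT2, chr12:69585789-69585818, plus strand, motif at -89 from the second of its annotated starts: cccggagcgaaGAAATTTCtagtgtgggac
CCT4, chr2:61888607-61888629, minus strand, 38 bases after a RefSeq start: ccggcgccgctTTCTGGAAggtt

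The match of TCP1 lies in an exon of MRPL18 and is also in the window of that gene, and MRPL18 holds another match, in the other form, 283 bases before the RefSeq start of TCP1 and outside the TCP1 window. They are given as read on the strand of MRPL18.
MRPL18, chr6:159789815-159789844, plus strand: gggaagaggttGAACCTTCgcctcaaacga
MRPL18, chr6:159789867-159789896, plus strand: attctagtgccTTCTAGAAaaggttgtaag
The matches of CCT2 and CCT4 lie in exons of their own genes, and each was in 1 of the 2 windows of its gene. A match is a description of these letters only; whether a factor binds there was not tested.

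The genes of proteins that work with the chaperonin differed in both directions at 12 h. In limma at 2 h 0 genes passed in any of the lists below, the heat shock genes with their large differences included. Counts above and below both DMSO libraries at 12 h stand beside 30.1% and 35.6% of all genes. Of the 6 prefoldin genes, 3 were above and 1 below, with a median log2 difference of 0.17 from the DMSO mean. It became -0.11 with the first DMSO library as the reference and 0.30 with the recovered one, so its sign turned with the library used; PFDN2 was 0.057 above the first. PFDN4 (0.36), PFDN2 (0.35) and PFDN5 (0.24) were the higher ones, and PFDN1 (0.097), VBP1 (-0.17) and PFDN6 (-0.18) were the lower ones. Among the phosducin-like cofactors TXNDC9 was at 0.071, PDCL3 at 0.015 and PDCL at -0.26, and PDCL2 was under the minimum level. Of the 6 tubulin cofactor genes TBCA (0.39) and TBCB (0.33) were highest at 12 h, TBCC, TBCE and ARL2 were at 0.13, -0.022 and -0.18, and TBCD was lowest at -0.93. The median of these 6 was 0.052 against the DMSO mean and -0.039 against the first DMSO library. TBCD, which helps to assemble the tubulin dimer, was at 44.0 and 37.3 FPKM with DMSO and 46.9 and 36.9 FPKM at 2 h, then at 38.5 FPKM at 6 h and 21.3 FPKM at 12 h.

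The main clients, 14 actin and tubulin genes, had a median of 0.23 at 12 h, with the same median, 0.23, against the first DMSO library, and 5 were above and 0 below both DMSO libraries. TUBB3 (1.22) and TUBB2A (0.98) were highest, and TUBB (-0.55) and TUBG1 (-0.37) lowest. TUBB3 was at 101.6 and 51.6 FPKM with DMSO and 168.5 FPKM at 12 h. In the recovered DMSO library 9 of 14 were lower than in the first, against 54.1% of all genes, with a median of -0.82, and ACTG1 went the other way, from 680.3 FPKM in the first to 2024 FPKM in the recovered library.

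Of 12 other known clients, 11 passed the minimum level (GNB4 did not), with a median of -0.32 at 12 h (-0.45 against the first DMSO library); 7 were below and 2 above both DMSO libraries. CCNE1, which encodes cyclin E1, was highest at 1.35, with 9.31 and 7.94 FPKM with DMSO and 22.0 FPKM at 12 h. GNB2, a G-protein beta subunit, followed at 0.15. The mitotic kinase gene PLK1 (-1.02) and RPTOR (-0.78), the gene of a subunit of the mTOR complex, were lowest. Of the listed chaperonin relatives outside the 8 subunits, BBS10 (-0.83) and CCT6B (-0.29) were lowest and BBS12 (0.079) and MKKS (-0.057) highest at 12 h, and CCT8L2 was under the minimum level. The median of the relatives was -0.17, and -0.20 against the first DMSO library.

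**Figure D5:**
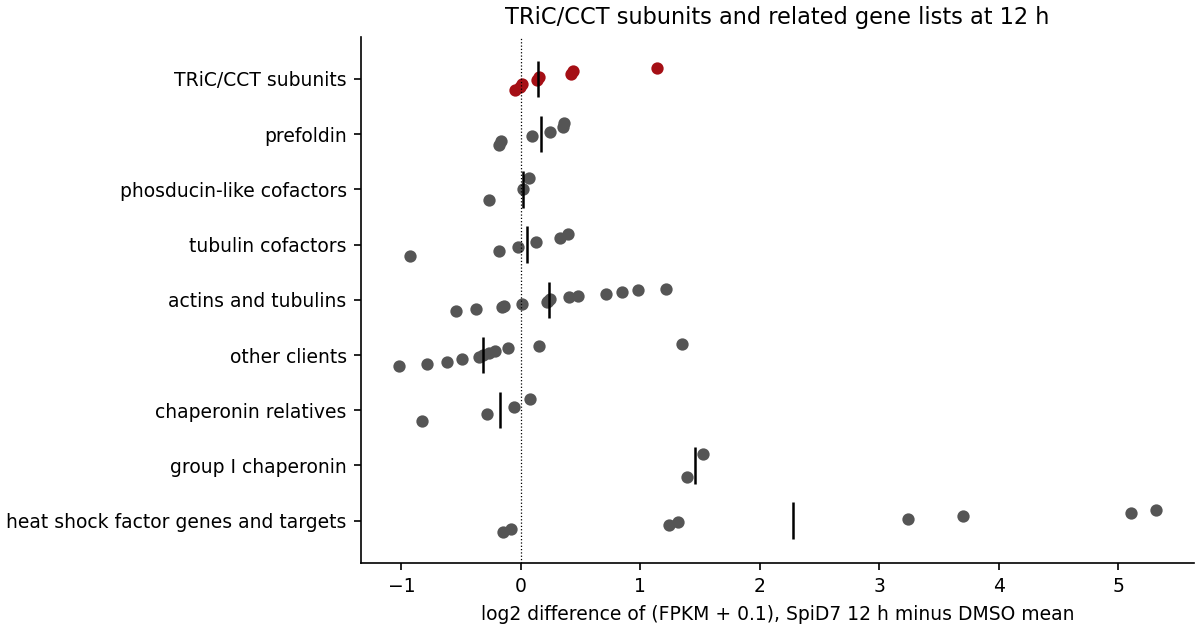
Log2 difference of FPKM + 0.1 at 12 h from the DMSO mean (horizontal axis) for the 8 subunits (red) and the genes of each related list (grey points, black bar at the median). TCP1 at 1.14 is closer to the group I chaperonin genes (1.39 and 1.52) than to the other subunits (-0.048 to 0.44).

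The mitochondrial chaperonin HSP60, encoded by HSPD1, and its co-chaperonin gene HSPE1 had larger differences than the TRiC/CCT subunits at 12 h. HSPD1 was at 966.1 and 531.7 FPKM with DMSO, 1228 and 912.8 FPKM at 2 h, 1839 FPKM at 6 h and 2055 FPKM at 12 h. The log2 difference at 12 h was 1.52 for HSPD1 and 1.39 for HSPE1, beside 1.14 for TCP1 and 0.44 for CCT2; against the first DMSO library it was 1.09 for HSPD1, 0.99 for HSPE1 and 0.68 for TCP1. Among the heat shock factor genes and their known targets, 6 of 8 were above both DMSO libraries at 12 h, with a median of 2.28 (1.88 against the first DMSO library). At 2 h 6 of 8 were above both as well, with a median of 1.07. HSPA1B (5.31) and HSPA1A (5.10) were highest at 12 h, and the factor genes HSF2 (-0.15) and HSF1 (-0.084) lowest. HSPA1A and HSPA1B are near-identical copies whose reads may have been divided between them. Of these genes and HSPD1, at least 1 promoter window with a heat shock repeat was found for HSPA1A, HSPA1B, DNAJB1, HSPA8, HSP90AA1 and HSPD1, and none for HSPH1, HSF2 or HSPE1. HSF1, like CCT6A, had no window to search.

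The genes whose levels were most like the mean log2 level of the 8 subunits over the 6 libraries were PPME1 (Pearson's r = 0.997), HNRNPC (0.996), CTNNAL1 (0.995), PRNP (0.995), CAMSAP1 (0.995) and ORC6 (0.995), among 7175 genes with a mean of at least 10 FPKM. The 6 points share the gap between first and recovered libraries. PPME1, a phosphatase methylesterase gene, shows this: it was at 77.0 and 32.6 FPKM with DMSO and 77.0 and 40.8 FPKM at 2 h.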

How the data were processed

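Per the labels, RNA of OVCAR5 cells was made into libraries with the TruSeq V2 kit. According to the submitters' processing notes, the authors used Trim Galore, TopHat2 2.0.8, Cufflinks 2.1.1 and Cuffdiff 2.1.1; a human and a mouse build are named, and the loci in the table are human. The authors deposited 1 table of FPKM values for both sides of 4 Cuffdiff comparisons. It also holds their fold changes, p-values and q-values, which were not used. No value column lacked a sample or group (0 columns).

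Each comparison had been scaled separately, and all were brought to the first by the DMSO values they share (0.972 at 6 h, 0.994 at 12 h). The columns named for replicate 2 were read as group means, which no source states: 0 of the 18195 rows with a value in the first DMSO library were at 0 there. The lowest ratio of the mean to the first library at which rows piled up gave the weight of the first library. It was 0.526 over 791 rows for DMSO and 0.509 over 926 rows for 2 h. The remainder, taken as 0 under 0.2% of the mean, was divided by this weight to give the recovered library. Every recovered value rests on this step. Rows of 1 symbol were summed, giving 29982 symbols from 33085 rows, and the 13287 whose mean FPKM reached 1 were kept.

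Log2(FPKM + 0.1) was used throughout, and a fold change on it understates changes of low genes. The 2 h and DMSO libraries were compared by limma 3.58.1 in R 4.3.3 with Benjamini-Hochberg adjustment; 6 h and 12 h had no test of their own, and a limma fit over all 6 libraries was added after seeing the data. The fit was tested on simulated data with less spread than the real libraries. Other steps, with the exact permutation test, used Python 3.11.15, pandas 2.3.3 and scipy 1.17.1. Positions came from GENCODE v29 and promoter windows from RefSeq. The text names all 8 members, genes overlapping or within 2000 bases of a member's start, pseudogenes of a member, the 6 genes most like the members, and the 2 highest and 2 lowest genes of each list of related genes at 12 h (all of a list of up to 6), with marker genes of cell types as a check; a few others, such as ACTG1, were named after their values were seen. Members and lists were chosen with earlier results of these data known. Alternatives were other pseudocounts, filters, scalings, a replicate block, an intensity trend, the deposited mean columns and leaving out each replicate. Depth is unknown, so no counting error is given.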

Additional observations from a re-analysis of the deposited data

How the results depend on the processing

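The 2 h result for the subunits, 0 of 8 called by limma, held under each alternative that had a test. The deposited mean columns had none. Few genes passed in any of these fits, so this does not show that the subunits were unchanged. With the replicate number as a replicate block, 0 genes were called (1874 with an unadjusted p under 0.05) and the adjusted p of the subunits ran from 0.372 (CCT2) to 1; the numbers are shared only by label, and the deviations of same-numbered libraries correlated at 0.369. The number of genes called over the whole table was 3 in the fit reported, 1 with a pseudocount of 1, 6 with a pseudocount of 0.01, 6 without a filter on low values, 5 with an intensity trend, and 0 to 21 when a replicate was left out (12 without the first DMSO library, 20 without the recovered one, 0 without the first 2 h library and 21 without the recovered one). The sign of the 2 h differences near 0 turned for CCT5 (-0.041) and CCT6A (-0.023) under median-ratio scaling and for the same genes (-0.047 and -0.032) with the deposited mean columns. Leaving out a replicate, where the lone library is assumed to vary like the other group, moved the 2 h difference of TCP1 from -0.12 to 0.81, CCT2 from -0.062 to 0.44, CCT3 from -0.31 to 0.30, CCT4 from -0.24 to 0.44, CCT5 from -0.39 to 0.40, CCT6A from -0.29 to 0.33, CCT7 from -0.33 to 0.24 and CCT8 from -0.28 to 0.41. In an alternative chosen after seeing the data, each subunit relative to the mean of the 8, some values fall below 0 by construction: at 6 h these were CCT3 (-0.24), CCT5 (-0.12), CCT6A (-0.13), CCT7 (-0.18) and CCT8 (-0.10).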

Other observations

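CCT6P1, a pseudogene of CCT6A, was low but was above both DMSO libraries in each SpiD7 library: 1.66 and 2.01 FPKM with DMSO, 3.47 and 3.45 FPKM at 2 h, 3.99 FPKM at 6 h and 3.63 FPKM at 12 h. Of all genes, 13.7% were above both DMSO libraries in both 2 h libraries, 31.6% at 6 h and 30.1% at 12 h. Its log2 difference at 2 h was 0.89 (SE 0.18, n = 2 and 2, limma adjusted p = 1), while that of CCT6A itself was 0.020. CCT6P3, another pseudogene of CCT6A, was also above both DMSO libraries in each SpiD7 library. It was at 1.55 and 1.81 FPKM with DMSO, 1.96 and 2.02 FPKM at 2 h, 2.38 FPKM at 6 h and 2.39 FPKM at 12 h. Its log2 difference at 2 h was 0.23 (SE 0.17, limma adjusted p = 1). Reads of these near copies and of CCT6A may have been divided between them in the authors' estimates, and how far that holds was not tested.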
